A study of Homo sapiens with 8 samples.

Results

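Translation factors were examined in LP-1 cells, a human multiple myeloma line, after 6 hr of bromodomain inhibition. The genes were those of the deposited table whose symbol begins with EIF and a digit from 1 to 6 or with EEF and 1 or 2, without the EIF2AK kinases and without symbols that end in P and digits. Of 180 symbols that matched, 4 were EIF2AK genes and 111 ended in P and digits. Of those 111, 108 were names of pseudogenes, while the other 3 were the 4E-binding proteins EIF4EBP1, EIF4EBP2 and EIF4EBP3, which are protein-coding genes and are described separately. Among the 65 genes left, 11 had a mean under 1 RPKM, and the other 54 were kept, of 63129 genes in the table. RPKM is a read count divided by gene length and library size, so levels can be compared between genes. Of the 54 genes, 53 could be tested among 14732 genes, and EEF1B2 could not, since its value was missing in SGC-CBP30 replicate 1.

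The 8 libraries form 4 groups of 2 biological replicates, all from LP-1 cells harvested after 6 hr. Cells received 2.5 μM SGC-CBP30, which inhibits the bromodomains of CBP and EP300, or 250 nM CPI203, which inhibits those of the BET family, and 2 DMSO libraries accompany each compound. The DMSO pairs were matched to the compounds by the naming series of the libraries. Dose, compound and experiment differ together, so they cannot be told apart. The 9 plasma cell markers examined, among them SDC1, CD38 and TNFRSF17, all had a mean of at least 1 RPKM. Among markers of other cells, PAX5 was listed at 0 in every library and MS4A1, CD3E, CD14 and LYZ were under 0.5 RPKM in every library.

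Initiation factors bring the small ribosomal subunit, the initiator tRNA and the capped end of an mRNA together. In that process eIF2 carries the initiator tRNA, eIF2B recharges eIF2 with GTP, eIF3 is the large scaffold on the small subunit, and the eIF4 proteins bind the cap and unwind the leader. Elongation factors then deliver aminoacyl-tRNA and move the ribosome along, and plasma cells and their tumours use this machinery heavily to make immunoglobulin.

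Sequence features of 2 kinds have been tied to the expression of translation genes, and both could be looked up here. The first is CACGTG, the E-box bound by MYC with MAX, which reads the same on both strands. It was searched in RefSeq promoter windows of 300 bases, from 250 before to 50 after each start, on GRCh38.p14, and 43 of 52 genes of the role lists had a window. It was present in 10 of those 43 genes (23.3%) and in 8.77% of 27305 genes with such a window. The latter share covers all genes with a window, whether or not they were expressed in LP-1 cells. A gene with several starts had several windows and was counted once. The sites below, with the motif in capitals and 10 bases on each side, are shown for genes that are described further on and that went different ways after CPI203.
EIF4A3 (chr17:80147234-80147259, minus strand): agttccctttCACGTGacgaagagtg
EIF1B (chr3:40309643-40309668, plus strand): gcgggacggtCACGTGggaggggccg
EIF4H (chr7:74174147-74174172, plus strand): gccgccgcacCACGTGggctgcagag
EIF4E (chr4:98929343-98929368, minus strand): acccatcggcCACGTGaccagtcctt
EIF4E (chr4:98929190-98929215, minus strand): acatatccgtCACGTGgccagaagct
EIF4G1 (chr3:184314452-184314477, plus strand): ctgtggctgtCACGTGacggggcggg
EIF4G1 (chr3:184314529-184314554, plus strand): ctgcgccggtCACGTGggggcgccgg
EEF2K (chr16:22206209-22206234, plus strand): tgggggcggcCACGTGagcgccacgc

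The second is the terminal oligopyrimidine (TOP) tract, a C followed by pyrimidines at the very start of an mRNA, known from mRNAs whose translation follows mTOR signalling. Of the 9 genes of the list that are known for a TOP mRNA, 6 had a RefSeq start in the reference used. In 5 of these 6 the RefSeq start opened with C and a pyrimidine run of at least 5 letters in all. Such a start was found in 7 of the 37 other genes with a window and in 5.14% of all 27305 genes, expressed or not. EEF1B2 has 2 RefSeq starts, of which the one printed opens with the run and the other does not, and it was counted as having one. The first 24 bases are shown with the run in capitals, and EEF1G is shown as the gene of the list that lacked one.
EEF1A1 (chr6:73521009-73521032, minus strand): CTTTTTCgcaacgggtttgccgcc
EEF2 (chr19:3985440-3985463, minus strand): CTCTTCCgccgtcgtcgccgccat
EEF1B2 (chr2:206159895-206159918, plus strand): CCTTTTTCCTCTCTTCagcgtggg
EIF3F (chr11:7987337-7987360, plus strand): CTTCTTTCTCgacaagatggccac
EIF4B (chr12:53006456-53006479, plus strand): CTTTTgcgttctctttccctctcc
EEF1G (chr11:62573868-62573891, minus strand): actttgcggcagcgccgagaaccc

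These genes were abundant in LP-1 cells. The mean over the 8 libraries ran from 6.33 RPKM for EIF3J-AS1, a transcript antisense to EIF3J, to 756.2 RPKM for EEF1A1, with a median of 113 RPKM against 12.8 RPKM for all genes tested. A mean of 100 RPKM or more was reached by 29 of the 54. Depth, estimated from steps of whole reads in low RPKM values, was between 26000000 and 50100000 reads per library. It was 34500000 and 34100000 with DMSO and 50100000 and 46800000 with SGC-CBP30. In the CPI203 experiment it was between 26000000 and 29700000. Whether depth bears on the SGC-CBP30 results was not tested. The SD of the log2 difference between replicates was between 0.0909 and 0.115.

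CPI203 lowered the majority of the translation factors by small amounts, and SGC-CBP30 moved fewer genes and in both directions. With CPI203, 33 of the 53 genes were lower at an adjusted p under 0.05 (limma, Benjamini-Hochberg over all genes tested), which is 62.3%, while 33.1% of all genes tested were lower. Another 8 of 53 were higher (15.1%), against 31.1% of all genes. The median log2 fold change was -0.23, against -0.015 for all genes. The 33 genes that passed lower include subunits of eIF2, eIF2B and eIF3, the cap-binding protein EIF4E, the scaffold EIF4G1 and the helicases EIF4A1 and EIF4A2.

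With SGC-CBP30, 12 of 53 genes were lower (22.6%), against 14.8% of all genes, and 9 were higher (17%), against 25.6% of all genes. The median log2 fold change was 0.008, against 0.070 for all genes. How the SGC-CBP30 changes split between lower and higher depended on the scaling of the libraries. The counts were 19 lower and 5 higher with libraries scaled to the same median, and 5 lower and 21 higher after quantile normalization. The CPI203 counts stayed at 33 lower under both, with 7 and 9 higher. Without SGC-CBP30 replicate 2 the SGC-CBP30 counts were 7 lower and 5 higher, and without DMSO for SGC-CBP30 replicate 2 they were 7 lower and 6 higher.

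The changes were small for both compounds. No gene of the set passed 1.5-fold with SGC-CBP30 in the limma test, in either direction, the log2 fold changes running from -0.31 to 0.49, while 3.79% of all genes passed 1.5-fold lower and 3.47% higher. With CPI203, 1 of 53 genes passed 1.5-fold lower, EIF4E3, against 14.4% of all genes, and 1 passed 1.5-fold higher, EIF4A3, against 13.4% of all genes. Both lay close to the threshold, and EEF1E1, at -0.58, lay just outside it. The median size of the log2 change was 0.27 for CPI203 (0.33 over all genes) and 0.10 for SGC-CBP30 (0.18 over all genes). In bulk RNA, fewer mRNA molecules per cell and a different share of cells cannot be told apart. For 1 gene at a time, exact permutation of 2 libraries against 2 can reach a two-sided p no smaller than 0.333, so the p-values given here rest on the spread that limma shares across genes.

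**Figure D1:**
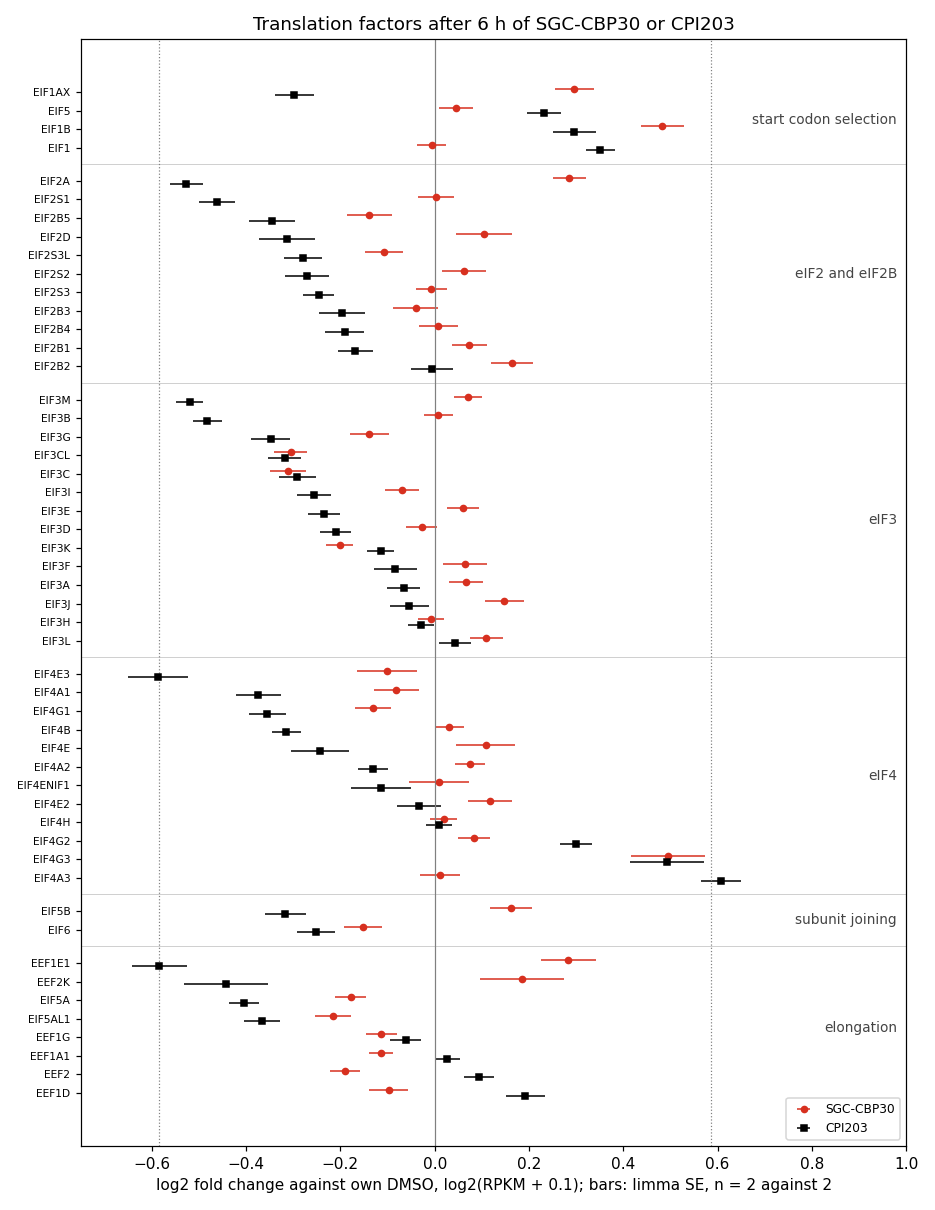
The log2 fold change of the 51 tested genes of the role lists is plotted for SGC-CBP30 (circles) and CPI203 (squares), each against its own DMSO, with limma standard errors (n = 2 against 2). Dotted lines mark 1.5-fold. Squares lie left of 0 for all 11 genes of the eIF2 and eIF2B group and for 13 of the 14 eIF3 genes, while circles lie on both sides of 0 in both groups.

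The DMSO pairs themselves differed. Between them, 25 of 53 genes differed at an adjusted p under 0.05 (47.2%), against 41.7% of all genes. EIF4E3 and EEF1A1 were about doubled in the DMSO pair of CPI203, with log2 differences of 1.06 and 0.95. Each compound is therefore set against its own DMSO only. When all 4 DMSO libraries served as controls, 27 genes were lower and 6 higher with CPI203, and 1 was lower and 2 were higher with SGC-CBP30.

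The start codon selection group holds 4 genes that set how strictly the scanning ribosome recognises AUG. After CPI203, 3 of them were higher (75%, against 31.1% of all genes). EIF1, which holds the scanning complex open, had 285 and 288 RPKM with DMSO and 371 and 360 RPKM with CPI203. Its log2 fold change was 0.35 ± 0.03 (SE, adjusted p = 5.41e-06). With SGC-CBP30 it had 303 and 298 RPKM against 296 and 308 RPKM with DMSO, a log2 fold change of -0.01 ± 0.03 (adjusted p = 0.883). The CPI203 libraries thus lay above both of their DMSO libraries, while the SGC-CBP30 libraries lay within the range of theirs. This SGC-CBP30 value turned to 0.09 (adjusted p = 0.009) after quantile normalization.

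EIF1B, a close relative of EIF1, and EIF5, which makes eIF2 hydrolyse its GTP, are named to account for the whole group. EIF1B rose from 23.9 and 23.8 RPKM to 29.3 and 29.4 RPKM with CPI203 (log2 fold change 0.30 ± 0.05, adjusted p = 0.000316). With SGC-CBP30 it rose from 22.3 and 23.3 RPKM to 32.3 and 31.4 RPKM (0.48 ± 0.05, adjusted p = 6.91e-05). Treated and DMSO libraries of EIF1B did not overlap with either compound, and its promoter holds the E-box shown earlier. EIF5 rose from 195 and 206 RPKM to 236 and 234 RPKM with CPI203 (0.23 ± 0.04, adjusted p = 0.000271).

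EIF1AX, the X-linked eIF1A gene that works beside EIF1 in scanning, was the member of this group that fell with CPI203. It had 37.4 and 37.7 RPKM with DMSO and 30.2 and 30.8 RPKM with CPI203 (-0.30 ± 0.04, adjusted p = 0.000149). With SGC-CBP30 it went the other way, from 27.3 and 27.2 RPKM to 33.8 and 33.2 RPKM (0.30 ± 0.04, adjusted p = 0.000614). The difference between the compounds was 0.59 ± 0.06 (adjusted p = 3.21e-05), and the groups did not overlap in either experiment. The DMSO pairs differed by 0.46 for EIF1AX, and the SGC-CBP30 libraries lay below the DMSO libraries of CPI203. With all 4 DMSO libraries as controls neither call passed (0.07 with SGC-CBP30 and -0.07 with CPI203, adjusted p = 0.793 and 0.721). The row of EIF1AX held between 26.2% and 31.5% of the summed RPKM of the gene and its 2 pseudogene rows, which can share reads with it. Summed with them, the log2 fold changes were 0.12 with SGC-CBP30 and -0.24 with CPI203. On hg19, the build in the submitters' notes, EIF1AX lies at chrX:20142635-20159962.

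The eIF2 and eIF2B group fell together with CPI203. Of 11 genes tested, 10 passed lower (90.9%, against 33.1% of all genes), with a group median of -0.27. EIF2B2, a regulatory subunit of eIF2B, did not pass (adjusted p = 0.932). The group also holds EIF2A, EIF2D and EIF2S3L, which are not counted as subunit genes here, and each passed lower. EIF2S1 encodes eIF2 alpha, the subunit whose phosphorylation by the EIF2AK kinases restrains initiation. It had 178 and 190 RPKM with DMSO and 135 and 132 RPKM with CPI203, so both treated libraries were lower (-0.46 ± 0.04, adjusted p = 3.95e-06). With SGC-CBP30 it had 167 and 166 RPKM against 164 and 169 RPKM with DMSO (0.00 ± 0.04, adjusted p = 0.949). EIF2S2 and EIF2S3, which encode the other eIF2 subunits, had log2 fold changes of -0.27 and -0.25 with CPI203, although the row of EIF2S2 held only between 24.8% and 27% of its sum with pseudogene rows. The 5 eIF2B subunit genes had their lowest CPI203 value in the catalytic subunit EIF2B5, at -0.34. With SGC-CBP30 EIF2B5 passed lower and EIF2B2 and EIF2A passed higher, and the other 8 genes of the group did not pass. The EIF2B5 call was lost in 7 of the 8 fits that left out a library, with -0.07 (adjusted p = 0.296) without DMSO for SGC-CBP30 replicate 2. The EIF2B2 call was lost without either DMSO for SGC-CBP30 replicate and without SGC-CBP30 replicate 2.

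EIF2A, which despite its name is no subunit of eIF2 but can bring initiator tRNA to some mRNAs, moved in opposite directions. It rose from 69.6 and 71.7 RPKM to 86.5 and 85.8 RPKM with SGC-CBP30 (0.29 ± 0.03, adjusted p = 0.000271), which did not pass with all 4 DMSO libraries as controls (0.20, adjusted p = 0.0951). With CPI203 it fell from 80.1 and 79.9 RPKM to 56.0 and 55.1 RPKM (-0.53 ± 0.03, adjusted p = 9.43e-07). Neither experiment showed overlap between treated and DMSO libraries, and the difference between the compounds was 0.81 ± 0.05 (adjusted p = 1.93e-06). EIF2A lies at chr3:150264464-150302029 on hg19.

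The eIF3 subunits also shifted downward with CPI203. Of 14 genes, 9 passed lower (64.3%, against 33.1% of all genes), and the median was -0.22. The 9 include EIF3C and EIF3CL, which can share reads. They also include EIF3E, whose call was lost with all 4 DMSO libraries as controls (-0.09, adjusted p = 0.455). EIF3L was the gene of the group above 0, at 0.04 (adjusted p = 0.306). EIF3H, the most abundant eIF3 gene in DMSO, had 380 and 385 RPKM with DMSO and 379 and 371 RPKM with CPI203 (-0.03 ± 0.03, adjusted p = 0.372). With SGC-CBP30 it had 346 and 357 RPKM against 354 and 353 RPKM (-0.01 ± 0.03, adjusted p = 0.864). EIF3M and EIF3B, chosen after their values were seen, had the 2 lowest values of the group with CPI203. EIF3M fell from 250 and 255 RPKM to 176 and 175 RPKM, and EIF3B from 187 and 187 RPKM to 132 and 136 RPKM, with log2 fold changes of -0.52 ± 0.03 and -0.48 ± 0.03. Within the one complex, the CPI203 response therefore ran from a fall of 30.3% for EIF3M to the values of EIF3A, EIF3F, EIF3H, EIF3J and EIF3L, which did not pass.

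EIF3C and its near-identical copy EIF3CL, whose reads cannot be told apart with certainty, fell with both compounds. EIF3C had 192 and 203 RPKM with DMSO and 161 and 157 RPKM with SGC-CBP30 (-0.31 ± 0.04, adjusted p = 0.000295). With CPI203 it went from 159 and 150 RPKM to 127 and 126 RPKM (-0.29 ± 0.04, adjusted p = 0.000102). Treated libraries were below both DMSO libraries each time, and the responses differed by -0.02 ± 0.05 (adjusted p = 0.783). EIF3CL had log2 fold changes of -0.31 and -0.32. The SGC-CBP30 libraries of EIF3C lay near the DMSO libraries of CPI203. With all 4 DMSO libraries as controls the SGC-CBP30 calls of EIF3C and EIF3CL were lost (-0.14 for each, adjusted p = 0.45 and 0.414). With SGC-CBP30 the eIF3 group held 4 genes that passed lower, EIF3C, EIF3CL, EIF3G and EIF3K (28.6%, against 14.8% of all genes). Another 2, EIF3J and EIF3L, passed higher (14.3%, against 25.6%). The calls of EIF3G, EIF3J and EIF3L were each lost without SGC-CBP30 replicate 1 and without SGC-CBP30 replicate 2. Those of EIF3G (-0.09, adjusted p = 0.163) and EIF3J (0.10, adjusted p = 0.135) were also lost without DMSO for SGC-CBP30 replicate 2, and that of EIF3L (0.07, adjusted p = 0.194) without DMSO for SGC-CBP30 replicate 1.

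In the eIF4 group, CPI203 left 6 of 12 genes lower (50%, against 33.1% of all genes), 3 higher (25%, against 31.1%) and 3 that did not pass. Both genes of the set past 1.5-fold belong to it. EIF4A3, a helicase known as a core of the exon junction complex deposited on spliced mRNA, had 61.6 and 64.4 RPKM with DMSO and 98.0 and 93.8 RPKM with CPI203. The treated libraries lay well above the DMSO libraries (0.61 ± 0.04, adjusted p = 1.31e-06). With SGC-CBP30 it had 70.9 and 67.4 RPKM against 68.1 and 69.1 RPKM, which overlapped (0.01 ± 0.04, adjusted p = 0.848). The difference between the compounds was -0.59 ± 0.06 (adjusted p = 3.49e-05). EIF4A3 lies at chr17:78109012-78120982 on hg19. Its call at 1.5-fold was lost without CPI203 replicate 1 and without DMSO for CPI203 replicate 1, and its log2 fold change ran from 0.55 to 0.65 over the alternatives.

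The translational helicases EIF4A1 and EIF4A2 fell where EIF4A3 rose. EIF4A1 had 152 and 140 RPKM with DMSO and 108 and 117 RPKM with CPI203, a clear separation (-0.37 ± 0.05, adjusted p = 7.32e-05). EIF4A2 had 270 and 278 RPKM with DMSO and 257 and 245 RPKM with CPI203 (-0.13 ± 0.03, adjusted p = 0.00520), a call lost with all 4 DMSO libraries as controls (-0.01, adjusted p = 0.954). Neither passed with SGC-CBP30, where the log2 fold changes were -0.08 and 0.07 (adjusted p = 0.199 and 0.0911). EIF4A2 had the higher RPKM of the pair in all 8 libraries, but the row of EIF4A1 held only between 52.8% and 59.8% of its sum with pseudogene rows.

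EIF4E3, the least abundant of the 3 cap-binding proteins in the set, had 16.5 and 16.4 RPKM with DMSO and 10.96 and 10.88 RPKM with CPI203 (-0.59 ± 0.06, adjusted p = 2.35e-05). In the SGC-CBP30 experiment it had 7.77 and 7.89 RPKM with DMSO and 7.47 and 7.12 RPKM with the compound (-0.10 ± 0.06, adjusted p = 0.230). Its level with CPI203 was thus below its own DMSO and above the DMSO of the other experiment, and against all 4 DMSO libraries the CPI203 value was -0.06 (adjusted p = 0.897). The call at 1.5-fold was also lost with a pseudocount of 1 and without CPI203 replicate 2. EIF4E3 lies at chr3:71728439-71803924 on hg19.

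The major cap-binding protein EIF4E had 28.9 and 30.9 RPKM with DMSO and 25.2 and 25.2 RPKM with CPI203 (-0.24 ± 0.06, adjusted p = 0.00632), which did not pass with all 4 DMSO libraries as controls (-0.18, adjusted p = 0.0833). EIF4E2, a relative known for repressing translation, had 56.4 and 60.8 RPKM with DMSO and 58.1 and 56.4 RPKM with CPI203 (-0.03 ± 0.05, adjusted p = 0.560). EIF4E fell below both DMSO libraries, while EIF4E2 stayed within their range. With SGC-CBP30 EIF4E and EIF4E2 had log2 fold changes of 0.11 and 0.12, and neither passed (adjusted p = 0.194 and 0.0693).

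The 3 eIF4G genes split by paralog. EIF4G1 and EIF4G3 encode scaffolds that join the cap complex to eIF3. EIF4G1 fell from 205 and 197 RPKM to 154 and 161 RPKM with CPI203 (-0.35 ± 0.04, adjusted p = 2.48e-05). EIF4G2, a relative that lacks the EIF4E-binding region, rose from 347 and 359 RPKM to 435 and 433 RPKM (0.30 ± 0.03, adjusted p = 3.40e-05). EIF4G3 rose from 10.5 and 11.3 RPKM to 15.8 and 14.96 RPKM (0.49 ± 0.08, adjusted p = 0.000354). In all 3 genes treated and DMSO libraries were apart.

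With SGC-CBP30 EIF4G1 passed lower, from 229 and 240 RPKM to 217 and 211 RPKM (-0.13 ± 0.04, adjusted p = 0.0231). That call was lost without DMSO for SGC-CBP30 replicate 2, without SGC-CBP30 replicate 2 and after quantile normalization (-0.02, adjusted p = 0.633). EIF4G3 rose from 10.6 and 10.1 RPKM to 13.7 and 15.6 RPKM (0.49 ± 0.08, adjusted p = 0.00117), and the responses to the compounds differed by 0.00 ± 0.11 (adjusted p = 0.991). EIF4G2 did not pass with SGC-CBP30, at 0.08 ± 0.03 (adjusted p = 0.0788).

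**Figure D2:**
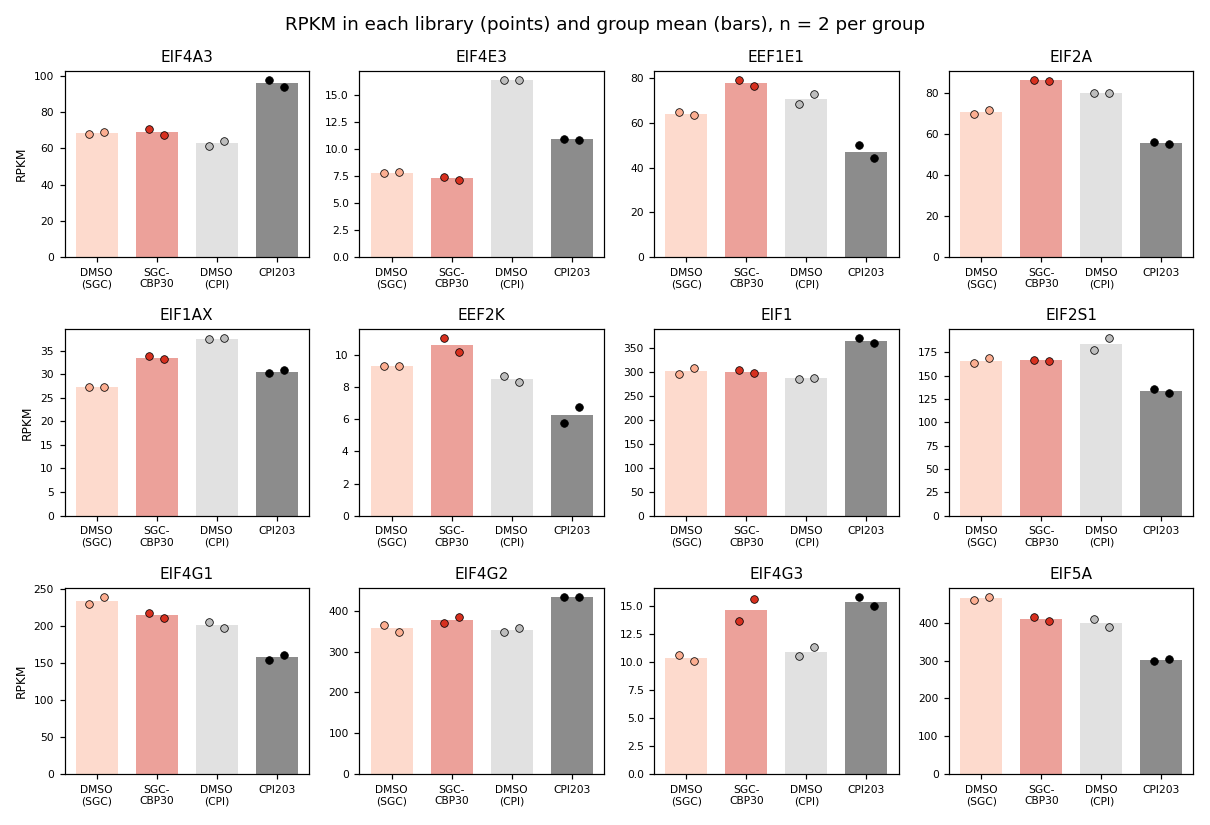
RPKM in each of the 8 libraries (points) and group means (bars, n = 2) is shown for 12 genes, by DMSO and compound of each experiment. EIF4A3, EIF1 and EIF4G2 passed higher with CPI203 and not with SGC-CBP30, EIF4G3 was higher with both compounds, and EEF1E1, EIF2A and EIF1AX were higher with SGC-CBP30 and lower with CPI203 than with the matching DMSO.

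Both genes of subunit joining fell with CPI203. EIF6, which keeps the large ribosomal subunit from joining too early, had 113 and 106 RPKM with DMSO and 91.2 and 92.6 RPKM with CPI203 (-0.25 ± 0.04, adjusted p = 0.000352). It was also lower with SGC-CBP30, at 114 and 108 RPKM against 122 and 124 RPKM (-0.15 ± 0.04, adjusted p = 0.0147), and the treated libraries lay below the DMSO libraries with both compounds. EIF5B, the GTPase that joins the subunits, is named to account for the pair. It fell from 30.8 and 31.9 RPKM to 25.1 and 25.2 RPKM with CPI203 (-0.32 ± 0.04, adjusted p = 0.000150). With SGC-CBP30 it rose from 31.1 and 30.1 RPKM to 34.3 and 34.3 RPKM (0.16 ± 0.04, adjusted p = 0.0166), a call lost without either SGC-CBP30 replicate and without DMSO for SGC-CBP30 replicate 2. The SGC-CBP30 call of EIF6 was lost without DMSO for SGC-CBP30 replicate 2, without SGC-CBP30 replicate 2 and after quantile normalization (-0.07, adjusted p = 0.172).

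Among 8 elongation genes tested, 4 passed lower with CPI203 (50%, against 33.1% of all genes) and 2 higher (25%, against 31.1%). The 4 lower were EEF1E1, EEF2K, EIF5A and EIF5AL1. With SGC-CBP30 5 passed lower (62.5%, against 14.8%) and 1 higher, EEF1E1 (12.5%, against 25.6%). The 5 lower were EEF1A1, EEF1G, EEF2, EIF5A and EIF5AL1, and all but EIF5AL1 lost the call after quantile normalization. The 2 that rose with CPI203 were EEF2, the translocase, and EEF1D, a subunit of the exchange factor that reloads eEF1A. EEF2 had 409 and 393 RPKM with DMSO and 421 and 435 RPKM with CPI203 (0.09 ± 0.03, adjusted p = 0.0249). With SGC-CBP30 it fell from 439 and 451 RPKM to 393 and 386 RPKM (-0.19 ± 0.03, adjusted p = 0.00140). Libraries were apart in both experiments. The CPI203 call of EEF2 was lost without CPI203 replicate 2 and without DMSO for CPI203 replicate 2, and also with libraries scaled to the same median. The SGC-CBP30 call was lost after quantile normalization (-0.04, adjusted p = 0.205). With all 4 DMSO libraries as controls neither call of EEF2 passed (-0.12 and 0.02, adjusted p = 0.221 and 0.807). EEF1D had a log2 fold change of 0.19 with CPI203 (adjusted p = 0.00241), and 0.08 (adjusted p = 0.444) with all 4 DMSO libraries as controls.

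EEF2K, the kinase that inhibits EEF2, had 8.70 and 8.33 RPKM with DMSO and 5.75 and 6.76 RPKM with CPI203, lower in both libraries (-0.44 ± 0.09, adjusted p = 0.00158). With SGC-CBP30 it had 11.1 and 10.2 RPKM against 9.34 and 9.34 RPKM (0.18 ± 0.09, adjusted p = 0.128). The responses differed by 0.63 ± 0.13 (adjusted p = 0.00245). EEF2K carries the E-box shown earlier, as do EIF4A3, which rose, and EIF4H, which did not pass with CPI203 (0.01, adjusted p = 0.798).

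EEF1E1 encodes a small protein of the multi-tRNA synthetase complex and gave the largest difference between the compounds among the 53 genes. It rose from 64.8 and 63.6 RPKM to 79.5 and 76.8 RPKM with SGC-CBP30 (0.28 ± 0.06, adjusted p = 0.00454), which passed neither without a filter on low values nor with all 4 DMSO libraries as controls (adjusted p = 0.0525 and 0.0891). It fell from 68.4 and 72.8 RPKM to 50.1 and 44.2 RPKM with CPI203 (-0.58 ± 0.06, adjusted p = 1.48e-05). The groups did not overlap in either experiment, and the difference was 0.87 ± 0.08 (adjusted p = 2.53e-05). EEF1E1 lies at chr6:8073592-8102811 on hg19.

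EIF5A, the hypusine-bearing factor that helps ribosomes past difficult stretches, was lower with both compounds. It went from 410 and 390 RPKM to 300 and 305 RPKM with CPI203 (-0.40 ± 0.03, adjusted p = 3.03e-06). With SGC-CBP30 it went from 460 and 469 RPKM to 417 and 404 RPKM (-0.18 ± 0.03, adjusted p = 0.00217), a call lost after quantile normalization (-0.02, adjusted p = 0.615) and with all 4 DMSO libraries as controls (-0.07, adjusted p = 0.554). Treated libraries were lower than DMSO in both experiments, and the fall was deeper with CPI203 by 0.23 ± 0.05 (adjusted p = 0.00251). EIF5AL1, a copy of EIF5A that can share its reads, also passed lower with both, with log2 fold changes of -0.22 with SGC-CBP30 and -0.37 with CPI203. The paralogs EIF5A2 and EEF1A2 were among the genes under 1 RPKM.

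EEF1A1, which delivers aminoacyl-tRNA to the ribosome, was the most abundant gene of the set. It had 516 and 524 RPKM with DMSO and 482 and 479 RPKM with SGC-CBP30, so the treated libraries were lower (-0.11 ± 0.03, adjusted p = 0.00705). With CPI203 it had 1039 and 1004 RPKM against 1001 and 1003 RPKM (0.03 ± 0.03, adjusted p = 0.385). The SGC-CBP30 value changed sign after quantile normalization (0.05, adjusted p = 0.0687).

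The row of EEF1A1 holds only part of the reads of this sequence. Rows named as its pseudogenes numbered 41, of which 2 had missing values and were left out, and EEF1A1 held between 22.4% and 36.6% of the sum. EEF1A1P5 alone had between 1354 and 1442 RPKM. Summed over the gene and its copies, EEF1A1 had log2 fold changes of -0.02 for SGC-CBP30 and 0.00 for CPI203, and the DMSO pairs differed by 0.37 in place of 0.95. EEF1B2, which could not be tested, had 228 and 228 RPKM with DMSO and 212 RPKM in the SGC-CBP30 library with a value, and 227 and 237 RPKM against 214 and 206 RPKM in the CPI203 experiment.

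**Figure D3:**
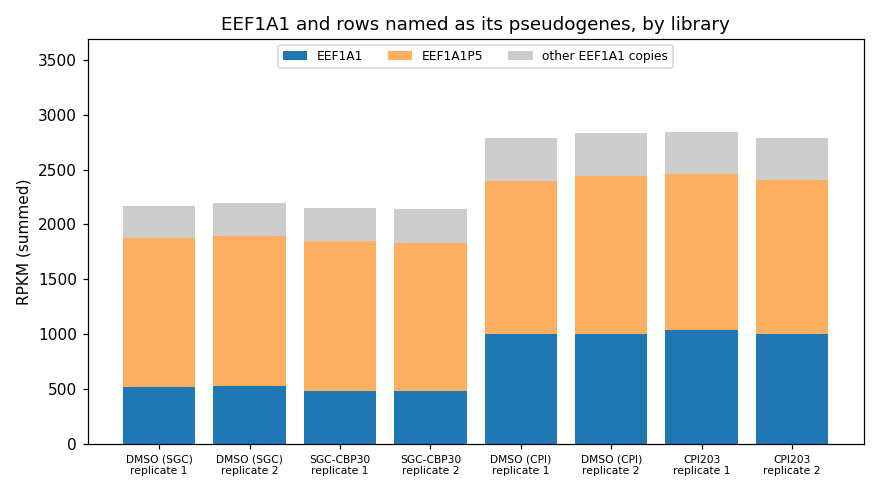
Stacked bars show the summed RPKM of EEF1A1, of EEF1A1P5 and of the other rows named as EEF1A1 pseudogenes in each of the 8 libraries. The EEF1A1 part is between 479 and 524 RPKM in the 4 libraries of the SGC-CBP30 experiment and between 1001 and 1039 RPKM in the 4 of the CPI203 experiment, while the EEF1A1P5 part stays between 1354 and 1442 RPKM.

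Set side by side, 38 of 53 genes responded differently to the compounds by the test of the difference itself (71.7%), against 50.3% of all genes. By the test of each compound, 9 genes passed lower with both (17%, against 8.4% of all genes). The 9 include EIF3C with EIF3CL and EIF5A with EIF5AL1, pairs that can share reads. With all 4 DMSO libraries as controls, EIF5AL1 alone among the 9 still passed lower with SGC-CBP30. Another 2, EIF1B and EIF4G3, passed higher with both (3.77%, against 13.7%). In opposite directions 5 passed (9.43%), near the 7.67% of all genes that did so. EEF1E1, EIF1AX, EIF2A and EIF5B were the 4 that were higher with SGC-CBP30 and lower with CPI203, and EEF2 was the reverse. Passing lower with CPI203 alone were 20 genes, and 7 passed with neither compound, among them EIF3H, EIF4E2 and EIF1AD. EIF1AD, which shares the symbol stem but is in no role list, had log2 fold changes of -0.14 and 0.10 (adjusted p = 0.0646 and 0.139). EIF3J-AS1, the other gene in no role list, had -0.02 and -0.34 (adjusted p = 0.882 and 0.0208), and its reads may be mixed with those of EIF3J, since use of strand in counting is not given in the sources used here.

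**Figure D4:**
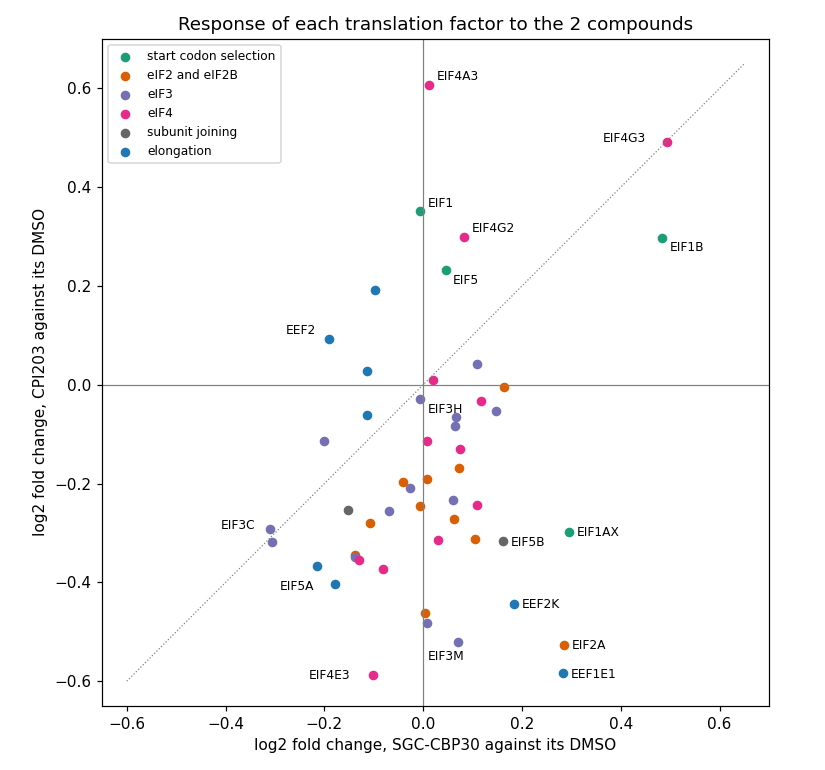
Each point is 1 of the 51 tested genes of the role lists, with SGC-CBP30 log2 fold change on the x axis and CPI203 log2 fold change on the y axis, coloured by role. The dotted line marks equal responses. EIF4G3 and EIF3C lie on it, EEF1E1 and EIF2A lie far below it at the right, and EIF4A3 lies above it at the top.

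Genes with and without these sequences both moved. With CPI203, 6 of the 10 tested genes with CACGTG and 21 of the 32 without it passed lower, and the median log2 fold changes were -0.16 and -0.25. With SGC-CBP30 the medians were 0.03 and 0.01. Of the genes known for a TOP mRNA, 8 were tested. Their median with CPI203 was -0.05, with 2 lower (EIF3E and EIF4B) and 2 higher (EEF1D and EEF2). None of these calls passed with all 4 DMSO libraries as controls. The other 43 genes of the role lists had a median of -0.25, with 30 lower and 6 higher. This split follows the list and not the sequence. The 7 genes outside the list whose start opened with the run all passed lower with CPI203. They were EIF2A, EIF2D, EIF2S3, EIF3D, EIF3K, EIF3M and EIF4A2. Of the listed genes with the run, EIF4B passed lower and EEF2 higher, EEF1A1 and EIF3F did not pass, and EEF1B2 was not tested. These counts are descriptions, and no difference between the lists was tested.

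Genes outside the set that act on the same machinery were looked at as a separate list. Of 41 such genes tested, 19 were lower (46.3%) and 16 higher (39%) with CPI203, against 33.1% and 31.1% of all genes. At 1.5-fold, 6 were called in each direction (14.6%), which is near the 14.4% lower and 13.4% higher of all genes. With SGC-CBP30 4 were lower (9.76%) and 16 higher (39%), against 14.8% and 25.6% of all genes. EIF4EBP2, which sequesters EIF4E, rose from 32.2 and 32.7 RPKM to 67.0 and 66.5 RPKM with CPI203 (1.04 ± 0.04, adjusted p = 5.65e-08). EIF4EBP1 fell from 81.3 and 76.0 RPKM to 54.2 and 54.6 RPKM (-0.53 ± 0.05, adjusted p = 1.59e-05). The 4E-binding proteins thus went opposite ways, and EIF4EBP3 was under 1 RPKM in all 8 libraries. With SGC-CBP30 the log2 fold changes of EIF4EBP2 and EIF4EBP1 were 0.20 and -0.20 (adjusted p = 0.00605 and 0.0166). EIF4EBP1 had 128 and 141 RPKM with DMSO and 121 and 114 RPKM with SGC-CBP30. Those SGC-CBP30 libraries lay above the DMSO libraries of CPI203. Results under other processing are given only for the genes of the set, not for these 41.

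Around eIF2, the phosphatase subunit PPP1R15A, which reverses eIF2 alpha phosphorylation, passed 1.5-fold with both compounds. It rose from 4.72 and 4.52 RPKM to 16.3 and 16.3 RPKM with CPI203 (1.80 ± 0.07, adjusted p = 5.59e-08). With SGC-CBP30 it rose from 4.12 and 4.18 RPKM to 8.63 and 8.12 RPKM (0.99 ± 0.07, adjusted p = 1.54e-05). It was the 1 gene of these 41 called with SGC-CBP30. Its constitutive relative PPP1R15B rose by 0.68 with CPI203, and the eIF2 kinase EIF2AK3 by 0.83, while the eIF2 kinase EIF2AK2 had -0.66. MKNK2, a kinase of EIF4E, had 0.96, and PAIP2B, an inhibitor of poly(A)-binding protein, had 1.41.

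The remaining genes called lower with CPI203 act at the end of translation, in mitochondria or on EIF5A. ABCE1, which splits ribosomes after termination, had -1.05, and HBS1L, which rescues stalled ribosomes, had -0.93. HBS1L also fell with SGC-CBP30, from 91.1 and 87.9 RPKM to 60.2 and 59.2 RPKM. That change (-0.58 ± 0.04, adjusted p = 7.08e-06 by limma) lay just short of 1.5-fold. The mitochondrial initiation factor MTIF2 had -0.69 and the mitochondrial release factor MTRF1 had -1.04. DOHH, which completes the hypusine of EIF5A, had -0.79. Among the values behind these, DOHH fell from 14.5 and 13.9 RPKM to 8.13 and 8.21 RPKM, with no overlap.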

How the data were processed

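The authors deposited 1 RPKM value per gene and library for the 8 libraries used. The submitters' processing notes name TopHat 1.4.1, Cufflinks and hg19; 24 further columns of the table belong to no sample of this series and were not used. RPKM values were converted to log2(RPKM + 0.1), with no further scaling and no count test. Genes averaging 1 RPKM or more, with no missing value, were tested with limma 3.58.1 in R 4.3.3, which fitted 4 group means with an intensity trend over all 8 libraries (4 residual and 5.5 prior degrees of freedom). Passing means a Benjamini-Hochberg adjusted p under 0.05 over 14732 genes, and called adds 1.5-fold. The paper set compound-treated replicates against paired DMSO controls, but the labels do not say whether a replicate number marks such a pair. The main fit was therefore unpaired, and a replicate block was fitted as an alternative.

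Genes named were those called at 1.5-fold, the 5 largest differences between compounds, the most abundant gene of each role, paralog pairs, EEF2K, EIF6 and EIF2S1, and outside the set the called genes and the 4E-binding proteins; others were named after their values were seen. Members and lists were chosen with earlier results of these data known. Sequences are RefSeq on GRCh38.p14, gene positions are hg19. A marker gene of other cells is not reported here.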

Additional observations from a re-analysis of the deposited data

Results flagged for a closer look

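In 5 of 53 genes (9.43%, against 7.67% of all genes tested) the compounds gave effects in opposite directions, each past the threshold of limma's adjusted p under 0.05, and the difference between the effects also passed. The log2 fold change with SGC-CBP30 minus that with CPI203 was 0.87 for EEF1E1, 0.81 for EIF2A, 0.59 for EIF1AX, 0.48 for EIF5B and -0.28 for EEF2. With all 4 DMSO libraries as controls, EIF1AX and EEF2 passed with neither compound, and EEF1E1, EIF2A and EIF5B no longer passed with SGC-CBP30. Dose and experiment differ along with the compound, and their part was not tested. Groups of 2 libraries were too small for a test of single outlying libraries.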

How the results depend on the processing

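With CPI203, between 27 and 34 genes passed lower and between 6 and 9 passed higher over all alternatives, and the median stayed between -0.24 and -0.18. The SGC-CBP30 counts depended more on the processing. Genes lower with SGC-CBP30 (12) numbered 7 with no filter on low values, 6 with no intensity trend, 7 at an adjusted p under 0.01, 19 with median scaling, 5 with quantile normalization and 1 with all 4 DMSO libraries. Genes higher (9) numbered 5 at an adjusted p under 0.01, 5 with median scaling, 21 with quantile normalization and 2 with all 4 DMSO libraries. The SGC-CBP30 median (0.008) was -0.069 with median scaling and 0.063 with quantile normalization, and the cause was not tested. Over all genes the SGC-CBP30 median also moved, from 0.070 to -0.006 with median scaling and to 0.0285 with quantile normalization. Leaving out each library in turn gave 7 to 13 lower and 5 to 10 higher with SGC-CBP30, and 32 to 33 lower and 7 to 8 higher with CPI203. It gave 0 to 1 called higher with SGC-CBP30 (EIF4G3, at 0.59 without SGC-CBP30 replicate 1), 0 to 2 called lower and 0 to 1 called higher with CPI203, and 28 to 36 genes differing between the compounds. The lowest SGC-CBP30 counts came without SGC-CBP30 replicate 2 (7 lower, 5 higher) and without DMSO for SGC-CBP30 replicate 2 (7 lower, 6 higher). Genes called lower with CPI203 (1) numbered 0 with a pseudocount of 1 and with all 4 DMSO libraries and 2 with median scaling, and genes called higher (1) numbered 2 with no filter and 0 with all 4 DMSO libraries. Quantile normalization turned the SGC-CBP30 values of EIF1 (0.093) and EEF1A1 (0.047).

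The replicate block gave 8 lower and 7 higher with SGC-CBP30 and 33 and 7 with CPI203. The labels do not say that a replicate number marks a shared culture or day, and deviations of same-numbered libraries correlated at -0.172 in the SGC-CBP30 experiment and -0.0395 in the CPI203 experiment over 8298 genes. Crossing the SGC-CBP30 numbers, an alternative chosen after seeing the data, gave 11 lower and 9 higher. Genes with a missing value kept and genes summed with their copies were also chosen after seeing the data, and the first gave 34 lower with CPI203. RPKM gives no counts, so counting error could not be modelled. Reads shared with copies limit EEF1A1, EEF1B2, EIF1AX, EIF2S2, EIF3F, EIF4B and EIF4A1. Whether EIF2S3 shares reads with EIF2S3L was not tested.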
